A study of Xenopus laevis with 3 samples.

Results

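The miR-183 cluster is a group of small RNAs, miR-183, miR-96 and miR-182, that vertebrates transcribe together and that is best known from sensory organs. Its members here were the Xenopus entries named miR-96, miR-182 or miR-183 in a table of mature microRNA read counts, with the best counted entries of other species added, the horse entry eca-miR-182 and the carp entry ccr-miR-183. The choice of these added entries used their counts, so their place at the top of their names is no finding. Each led the next entry of another species by 1 count in the orphan library. This gave 6 members of 1272 entries, 4 of them X. tropicalis entries (prefix xtr) and none X. laevis or X. borealis entries. The 6 members carried 5 distinct sequences, since xtr-miR-183 and ccr-miR-183 have the same letters.

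A microRNA pairs with messenger RNAs mainly through its seed, bases 2 to 8 from its 5′ end, and lowers the output of those messages. In mice and humans the cluster is abundant in photoreceptors, in hair cells of the inner ear and in sensory neurons of the nose. Mutations in the seed of miR-96 cause hearing loss in both species, and mice without the cluster have failing retinas.

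The tissue was the accessory olfactory bulb, which receives the axons of the vomeronasal sensory neurons, of Xenopus laevis larvae at stage 45, and RNA came from frozen cryosections of 50 µm. All larvae were 15 days old, and the labels call their rearing conditions orphan, sibling and non-sibling, without more detail. Where 3 values follow each other they are in that order. The labels give no strain or sex, describe no genetic change, and name 15 larvae without saying whether that is the number per condition or in all. Each condition had 1 library (n = 1), so no p-value can be given, no difference has a replicate check, and every interval covers counting error alone.

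The most used sequences are shown with the seed in capitals, as RNA, 5′ to 3′, from the deposited table, because the seeds set the members apart and the entries of 1 microRNA differ in length at the 3′ end.
xtr-miR-182-5p: uUUGGCAAugguagaacucaca
eca-miR-182: uUUGGCAAugguagaacucacacug
xtr-miR-183: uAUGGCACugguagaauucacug
xtr-miR-96: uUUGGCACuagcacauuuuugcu
xtr-miR-182-3p: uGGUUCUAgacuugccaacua

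Counting from 1 at the 5′ end, the seeds of xtr-miR-182-5p and xtr-miR-96 differed by A8C alone. The seeds of xtr-miR-183 and xtr-miR-96 differed by A2U alone, and those of xtr-miR-182-5p and xtr-miR-183 by U2A and A8C. Over the whole sequences, seed included, the likeness was distributed otherwise. xtr-miR-182-5p and xtr-miR-183 shared 18 of 22 bases, whereas xtr-miR-96 shared 12 of 22 with xtr-miR-182-5p and 13 of 23 with xtr-miR-183. In the whole table the seed of miR-182-5p occurred in 7 entries, all named miR-182. The seed of miR-96 occurred in 7 entries, of which 5 were named miR-96 and the other two miR-182. The seed of miR-183 occurred in 8 entries, 4 named miR-183 and 4 named miR-263a, the latter all from arthropods. No miR-263a entry with this seed had more than 3 counts in a library.

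miR-182-5p was the most counted member in every library. xtr-miR-182-5p, the main product of the miR-182 precursor, had 799947 counts for orphan larvae, 15564 for sibling larvae and 145878 for non-sibling larvae. As scaled CPM (counts per 1e6 of a library size that was adjusted for composition) these were levels of 36761, 22004 and 22182. The orphan level stood above the other two, which lay close together. Among the 170 distinct Xenopus sequences its ranks were 1, 3 and 1. The longer eca-miR-182 was counted almost alike, with 802581, 15623 and 146327 counts, and levels of 36882, 22088 and 22250 scaled CPM.

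xtr-miR-183 had 340485, 8565 and 48100 counts, which were levels of 15647, 12109 and 7314 scaled CPM. Its level was thus lowest in the non-sibling library, and its ranks among the Xenopus sequences were 3, 7 and 6. ccr-miR-183, with the same letters, had identical counts in all 3 libraries and is the same measurement.

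xtr-miR-96, the member tied to hearing loss, was far less counted. It had 1652, 46 and 263 counts, which were levels of 75.9, 65.0 and 40.0 scaled CPM. Its ranks among the Xenopus sequences were 90, 89 and 106. The non-sibling level was the lowest of the 3, as for miR-183.

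xtr-miR-182-3p, the product of the opposite strand of the miR-182 precursor, had 45, 4 and 20 counts. Its levels were 2.07, 5.66 and 3.04 scaled CPM. The sibling level lay near the floor of 3 counts in that library (4.24), so no order of the libraries can be read from it.

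**Figure D1:**
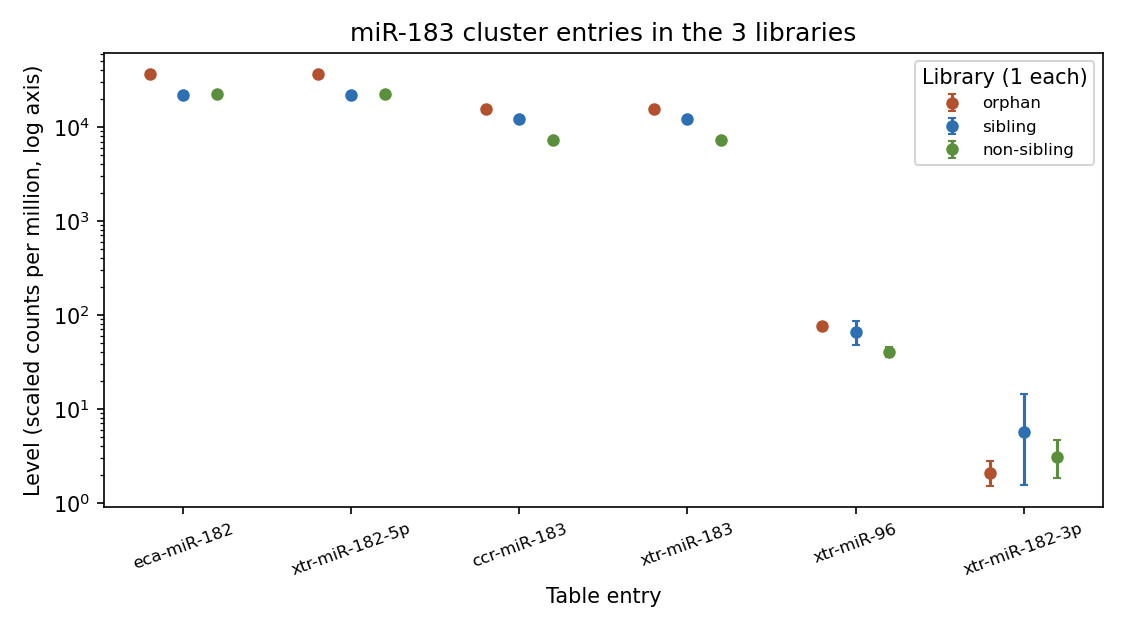
Level of each of the 6 entries in scaled CPM (log axis) for orphan, sibling and non-sibling larvae, 1 library each, with exact 95% Poisson intervals that cover counting error only. miR-182 and miR-183 lie 2 to 3 powers of 10 above miR-96, miR-183 and miR-96 are lowest in the non-sibling library, and the interval of xtr-miR-182-3p in the sibling library, which rests on 4 counts, is the widest.

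Together the 4 Xenopus entries held 25.4% of the counts of all Xenopus entries for orphan larvae (25.3 to 25.4%, exact binomial 95%), 13.0% for sibling larvae (12.9 to 13.2%) and 18.8% for non-sibling larvae (18.7 to 18.8%). Within this sum miR-182-5p held 70.0%, 64.4% and 75.1%, and miR-183 held 29.8%, 35.4% and 24.8%. miR-96 held 0.145%, 0.190% and 0.135%. The order miR-182-5p, miR-183, miR-96, miR-182-3p was the same in every library, and no neighbours in it had overlapping counting intervals. Counts of different sequences were not calibrated against molecules, so this is an order of counts.

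A ratio between 2 members of 1 library needs no scaling between libraries. miR-182-5p outnumbered miR-183 by a ratio of counts of 2.35 for orphan larvae (2.34 to 2.36, exact conditional 95%), 1.82 for sibling larvae (1.77 to 1.87) and 3.03 for non-sibling larvae. With eca-miR-182 and ccr-miR-183 the last was 3.04 (3.01 to 3.07). The intervals did not overlap, with the non-sibling library highest and the sibling library lowest. The non-sibling ratio was 1.67 times the sibling ratio (95% Wald interval on the log scale 1.62 to 1.72). The orphan ratio was 1.29 times the sibling ratio (1.26 to 1.33) and 0.775 times the non-sibling ratio (0.766 to 0.783). In the authors' quantile-normalized counts, which give entries of equal rank equal values, the ratios were 2.29, 2.51 and 4.14. There the orphan ratio lay below the sibling ratio, while the non-sibling ratio was again the highest.

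The ratio of miR-96 to miR-183 differed less between the libraries. The count of miR-96 per count of miR-183 was 0.00485 for orphan larvae (0.00462 to 0.00509), 0.00537 for sibling larvae (0.00393 to 0.00717) and 0.00547 for non-sibling larvae (0.00483 to 0.00617). The 3 intervals overlapped. The orphan ratio was 0.903 times the sibling ratio (0.673 to 1.21), the non-sibling ratio 1.02 times the sibling ratio (0.744 to 1.39), and the orphan ratio 0.887 times the non-sibling ratio (0.779 to 1.01). With bta-miR-96, the most counted miR-96 entry, the last was 0.877, with an interval that left out 1 (0.771 to 0.997). The 1.67 found for miR-182-5p to miR-183 between the non-sibling and sibling libraries lay outside the 0.744 to 1.39 of miR-96. In the authors' quantile-normalized counts miR-96 per miR-183 was 0.00533, 0.00772 and 0.00466, which puts the sibling ratio highest and the non-sibling ratio lowest. miR-182-5p per miR-96 was 484 for orphan larvae (461 to 508), 338 for sibling larvae (254 to 462) and 555 for non-sibling larvae (491 to 628).

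**Figure D2:**
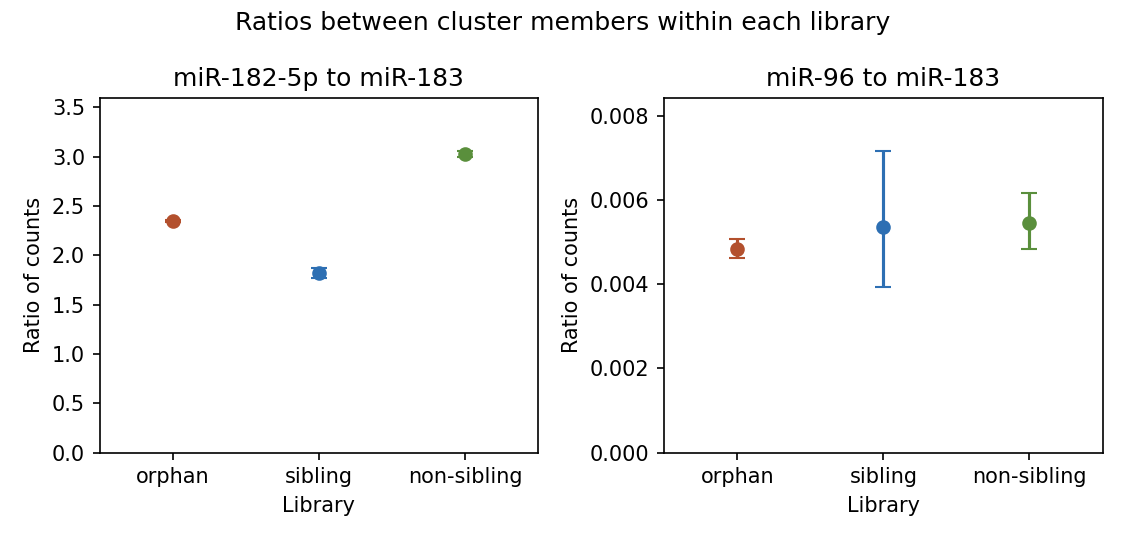
Ratio of counts of miR-182-5p to miR-183 (left) and of miR-96 to miR-183 (right) within each of the 3 libraries, with exact conditional 95% intervals and both axes starting at 0. The left intervals are apart, at 2.35, 1.82 and 3.03, and the right intervals overlap.

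Orphan larvae were first set against sibling larvae, where miR-182-5p and miR-183 lay higher and miR-96 could not be told apart. The size set for a call was at least 2, or at most 0.5, times the other library in scaled counts, with an interval that left out 1, among 866 entries with a summed count of at least 30. All 6 members reached that count, xtr-miR-182-3p (45, 4 and 20 counts) only through the orphan library. None of the 6 passed in either direction, where 8.89% of all entries were higher and 15.5% lower. The orphan level of xtr-miR-182-5p was 1.67 times the sibling level (1.64 to 1.70), larger than counting error but below the size set. That of xtr-miR-183 was 1.29 times (1.26 to 1.32), and that of xtr-miR-96 1.17 times, with an interval that held 1 (0.871 to 1.60). xtr-miR-182-3p was at 0.366 times, on 4 sibling counts, with an interval from 0.133 to 1.40. The members, with the miR-183 sequence among them under 2 names, had a median log2 ratio of 0.37. The 4 Xenopus entries had a median of 0.29. Over all 866 entries the median was 0.06, with quartiles of -0.79 and 0.64.

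Non-sibling larvae were set against sibling larvae next. Here too none of 6 members passed, where 11.2% of all entries were higher and 12.1% lower. The level of xtr-miR-182-5p was 1.01 times the sibling level, with an interval that held 1 (0.992 to 1.02). In contrast xtr-miR-183 was at 0.604 times (0.590 to 0.618), and xtr-miR-96 at 0.615 times (0.448 to 0.861), both below 1 by more than counting error and short of the size set. xtr-miR-182-3p was at 0.538 times (0.180 to 2.16). The median over the members was -0.72, beside -0.03 over all entries. These directions depend on the scaling. With total counts, where the median over all entries moved by 0.63 on the log2 scale, the log2 ratio was 0.65 for xtr-miR-182-5p, -0.09 for xtr-miR-183 and -0.08 for xtr-miR-96, against 0.01, -0.73 and -0.71. The authors' deposited table gives log2 values for this pair of 0.74 for xtr-miR-182-5p, 0.01 for xtr-miR-183 and -0.58 for xtr-miR-96. For xtr-miR-96 the authors' normalized counts themselves give -0.71, and the sources used here do not say how the ratio was formed. A factor per library moves both entries alike, so total counts could move only the place of zero. The distance of miR-182-5p above miR-183 for this pair was 0.72 in the authors' normalized counts, against 0.74 here. For orphan over sibling that distance was -0.13 in their normalized counts, against 0.37 here.

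The orphan and non-sibling libraries were the deeper pair. Of the 6 members, 2 were higher in the orphan library and none lower, where 7.51% of all entries were higher and 12.6% lower, and these 2 are the miR-183 entries of 1 sequence. xtr-miR-183 was 2.14 times as high (2.12 to 2.16), just past the size set. xtr-miR-96 was 1.90 times as high (1.67 to 2.17) and xtr-miR-182-5p 1.66 times (1.65 to 1.67), while xtr-miR-182-3p was at 0.680 times (0.393 to 1.22). The median over the members was 0.83, beside 0.02 over all entries, whose quartiles were -0.63 and 0.46. xtr-miR-183 fell below the size set with total counts (log2 ratio 0.70), with scaling on Xenopus entries alone (0.95) and with the authors' quantile-normalized counts (0.85). With non-sibling over orphan, the authors' deposited table gives log2 values of -0.85 for xtr-miR-183, -0.87 for xtr-miR-96 and 0.00 for xtr-miR-182-5p. The last value follows from rank, since xtr-miR-182-5p was entry 5 of the table by counts in both libraries and so received 1 normalized value, 321775, in both. The 3 comparisons share libraries and are not independent of each other.

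**Figure D3:**
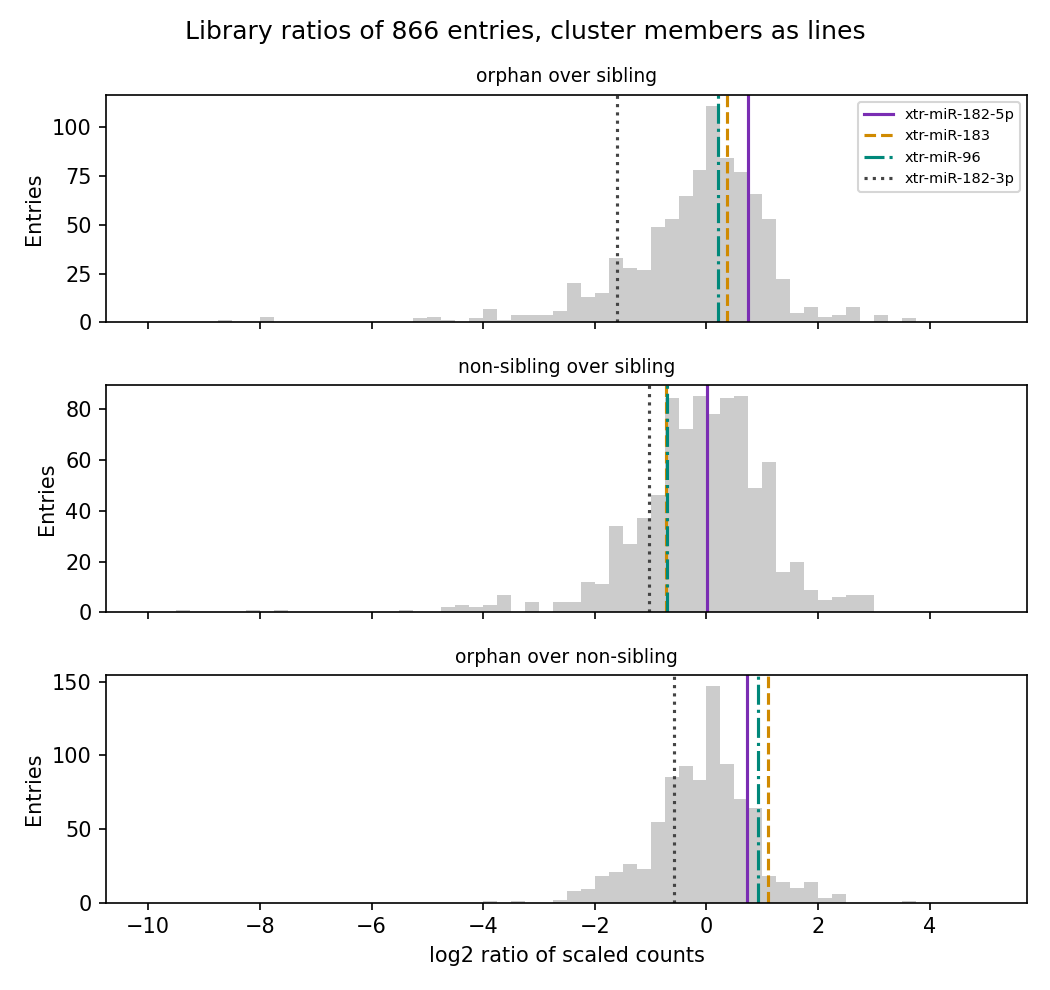
Number of entries (vertical axis) by log2 ratio of scaled counts for each pair of libraries over 866 entries, with the 4 Xenopus members as vertical lines. miR-183 and miR-96 lie together at about -0.7 for non-sibling over sibling, where miR-182-5p is at 0.01, and miR-182-5p, miR-183 and miR-96 lie to the right of 0 for orphan over non-sibling.

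**Figure D4:**
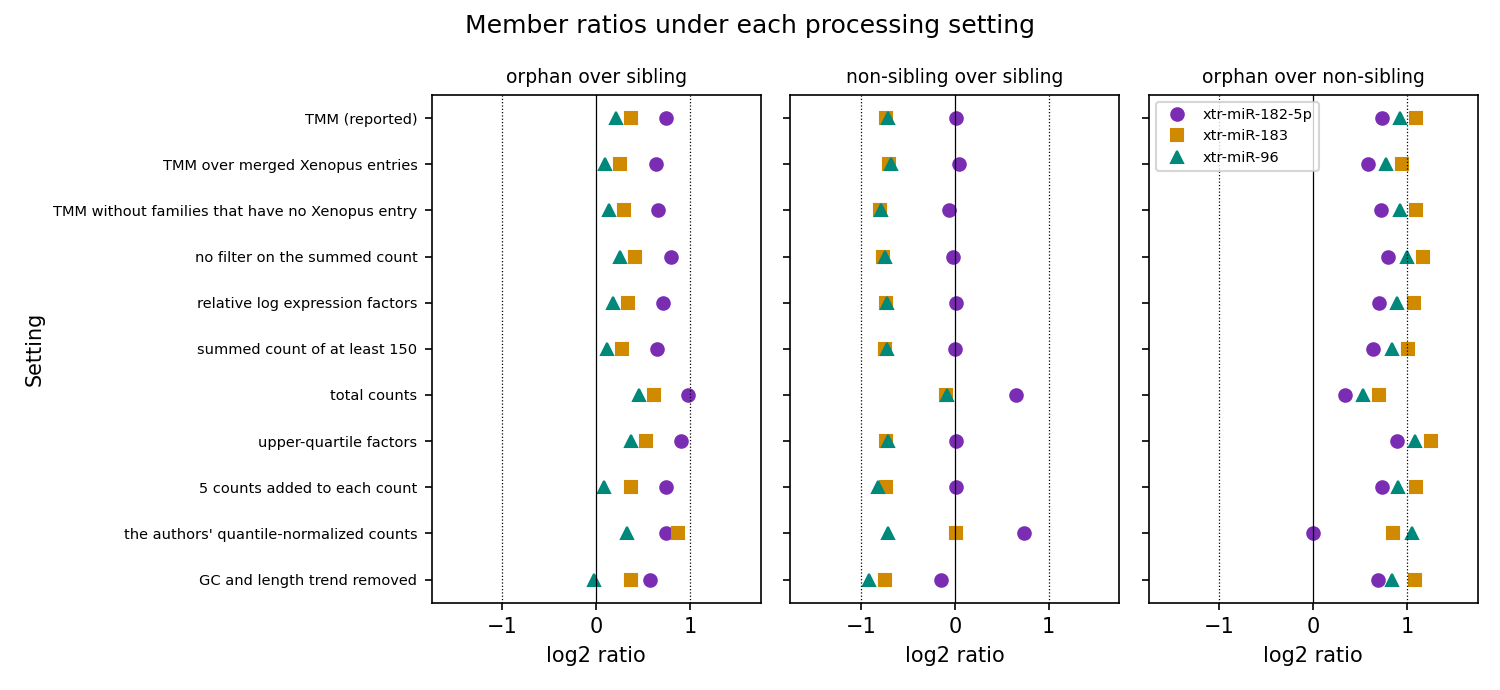
log2 ratio of xtr-miR-182-5p, xtr-miR-183 and xtr-miR-96 for each pair of libraries under the reported scaling (TMM) and 10 alternatives, with solid lines at 0 and dotted lines at the 2-fold size. Other scaling factors move the 3 points together, and the authors' quantile-normalized counts place miR-183 above miR-182-5p for orphan over sibling.

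Other species' entries of these microRNAs brought the table to 26 entries of the cluster, 14 named miR-182, 7 miR-183 and 5 miR-96. They are not further measurements, since the counts of most are nearly equal. Of the other entries, cgr-miR-183, eca-miR-183 and ola-miR-183-5p passed as higher for orphan over non-sibling with the same ratio of 2.14 as xtr-miR-183. The least counted miR-182 entries were aca-miR-182-3p and ccr-miR-182-3p, with 43, 4 and 17 counts each. xtr-miR-182-5p and the anole entry aca-miR-182-5p have the same letters and differed by 3 counts or fewer in each library. A pair of mammalian miR-182 entries is shown with its 1 differing base, U24C, in capitals, because their counts were far apart. This pair, lgi-miR-183 and isc-miR-96 were chosen after their values were seen.
bta-miR-182: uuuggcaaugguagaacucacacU
cgr-miR-182: uuuggcaaugguagaacucacacC

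The cattle entry bta-miR-182 had 802580, 15623 and 146323 counts. The hamster entry cgr-miR-182 had 478738, 9115 and 84470, which was 59.6% of the former for orphan larvae (59.5 to 59.8%), 58.3% for sibling larvae (57.6 to 59.1%) and 57.7% for non-sibling larvae (57.5 to 58.0%). The ratios between libraries hardly moved with the entry used. Orphan over sibling was 1.71 for cgr-miR-182 (1.67 to 1.74) and 1.67 for bta-miR-182 (1.64 to 1.70).

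Other values came from entries of invertebrates with miR-183-like letters. They are shown with the seed in capitals because one keeps the seed of miR-183 and the other has that of miR-96.
lgi-miR-183: aAUGGCACugguagaauucacgg
lgi-miR-182: cUUGGCACugguagaauucacug

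lgi-miR-183, a limpet entry that differs from xtr-miR-183 by U1A and U22G, had 7537, 376 and 2132 counts. These were 2.21% of the xtr-miR-183 counts for orphan larvae (2.16 to 2.26%), 4.39% for sibling larvae (3.97 to 4.85%) and 4.43% for non-sibling larvae (4.25 to 4.62%). The orphan share lay below both others, whose intervals overlapped. Whether these reads are also among those of xtr-miR-183 is not given in the sources used here, though the intervals of the shares treat them so. For this entry orphan over sibling was 0.652 (0.587 to 0.725), opposite in direction to xtr-miR-183 (1.29), while non-sibling over sibling was 0.610 (0.546 to 0.682).

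lgi-miR-182 carries the name of miR-182, but shared 21 of 23 bases with xtr-miR-183 (U1C and A2U) and 18 of 22 with xtr-miR-182-5p. It had 214, 1 and 56 counts, and cte-miR-182, an annelid entry 1 base shorter, had 223, 1 and 57. Both passed as higher over sibling, lgi-miR-182 with ratios of 6.96 (1.24 to 276) for orphan and 6.02 (1.04 to 242) for non-sibling, each resting on 1 sibling count. The entry sko-miR-96-5p, with 26, 5 and 16 counts, was the only entry of the cluster that passed as lower. It was at 0.169 for orphan over sibling (0.0639 to 0.564) and at 0.491 for orphan over non-sibling (0.254 to 0.980). isc-miR-96 had 147, 7 and 31 counts, or 8.74%, 14.6% and 11.4% of the bta-miR-96 counts, with overlapping intervals. bta-miR-96 had 1682, 48 and 271 counts and was the most counted entry of its name.

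**Figure D5:**
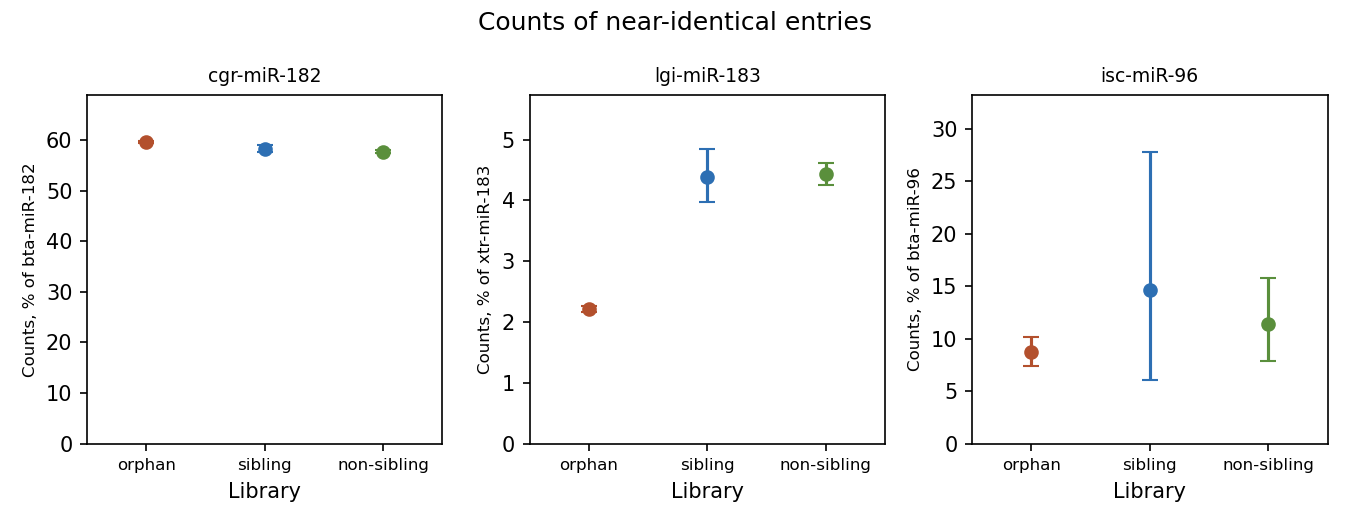
Counts of 3 entries as a percentage of a near-identical entry in each library, with exact 95% binomial intervals and axes starting at 0, for cgr-miR-182 against bta-miR-182, lgi-miR-183 against xtr-miR-183 and isc-miR-96 against bta-miR-96. The intervals treat the reads of each entry as part of those of the entry it is set against, which the sources used here do not give. The first lies between 57.7% and 59.6%, the second is lower in the orphan library (2.21%) than in the other libraries, and the third has overlapping intervals.

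Both strands of 2 precursors were listed. For miR-182 the 3p strand made up 0.00563% of the counts of both strands for orphan larvae (0.00410 to 0.00753%), 0.0257% for sibling larvae (0.00700 to 0.0658%) and 0.0137% for non-sibling larvae (0.00837 to 0.0212%). The orphan and non-sibling intervals did not overlap, and the sibling interval overlapped both. For miR-183 the 3p strand was listed as the medaka entry ola-miR-183-3p, shown for its strand, with 217, 5 and 43 counts.
ola-miR-183-3p: gUGAAUUAccauagggccaua

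Set beside xtr-miR-183, it made up 0.0637% (0.0555 to 0.0728%), 0.0583% (0.0189 to 0.136%) and 0.0893% (0.0646 to 0.120%), with overlapping intervals. In the orphan and non-sibling libraries the 3p share of miR-183 was above that of miR-182 beyond the intervals. The medaka letters may miss some Xenopus reads, so this share is a description of that entry.

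Among 135 other distinct Xenopus sequences with at least 150 summed counts, the 5 nearest to eca-miR-182 by their log2 ratios over the sibling library were xtr-miR-100, xtr-miR-199a-5p, xtr-miR-15c, xtr-miR-1a and xtr-miR-26. Nearness was the straight-line distance of both ratios over 3 libraries. xtr-miR-100 was nearest, at a distance of 0.17, with 0.60 for orphan and 0.11 for non-sibling over sibling, and xtr-miR-26, the farthest of the 5, was at 0.34 with 0.99 and 0.24. No other cluster member was eligible for this list, so it says nothing of the place of miR-183.

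Lists of other microRNAs of sensory tissues are set beside the cluster as counts and medians. In the miR-200 family, which acts in olfactory neurogenesis in mice and zebrafish, 10 of 29 entries were higher and none lower for non-sibling over sibling, with a median log2 ratio of 0.86, where 11.2% of all entries were higher. Of its 3 Xenopus entries 1 was higher and none lower. The cluster's 26 entries had a median of -0.73 there. For orphan over non-sibling none of 29 miR-200 family entries was higher and 20 were lower (median -1.33), where 7.51% of all entries were higher and 12.6% lower. Of the 26 cluster entries 5 were higher and 1 lower (median 0.73). The 5 were all miR-183 entries with the same ratio of 2.14, and the lower one was sko-miR-96-5p. Of the 3 Xenopus entries of the miR-200 family 1 was lower and none higher, with a median of -0.82. In a list of eye epithelia, miR-184 and miR-204, 7 of 11 entries were higher and none lower for orphan over non-sibling, where 7.51% of all entries were higher. For orphan over sibling 6 were higher and 1 lower, where 8.89% and 15.5% of all entries were. For non-sibling over sibling none was higher and 5 were lower, where 12.1% of all entries were lower. The higher entries of the eye list were all of miR-184, 7 of 7 for orphan over non-sibling and 6 of 7 for orphan over sibling. Of these 7, the medaka entry ola-miR-184-5p reached the summed count set for testing only through the orphan library. Its call for orphan over non-sibling is thus no finding. Of its 4 miR-204 entries none was higher in either pair, and 1 was lower for orphan over sibling. For non-sibling over sibling the lower entries were 1 of miR-184 and 4 of miR-204. These lists, too, hold near-identical entries of several species, and the eye list has 2 Xenopus entries. xtr-miR-184, of lens and cornea, had levels of 6454, 1246 and 568 scaled CPM. xtr-miR-204, of pigment epithelium and choroid plexus, had levels of 12945, 22040 and 9873 scaled CPM.

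The column totals were 22538325, 865654 and 5188106 counts, summed over all entries, near-identical ones included. All 13 neuronal Xenopus entries that reached the summed count of 30 had counts in every library. In the sibling library xtr-miR-137 had 2 counts and xtr-miR-153 had 3, which is not above the floor of 3 counts. xtr-miR-153 (69, 3 and 8 counts) reached the summed count only through the orphan library. xtr-miR-124, of the neuronal list, was at 63.6 to 84.7 scaled CPM, below the level of miR-183 in each library. xtr-miR-9-5p was at 6475, 4028 and 8396 scaled CPM, above miR-183 in the non-sibling library (7314) and below it in the other two. The 13 neuronal entries, of which xtr-miR-9-5p and xtr-miR-9a-5p have equal counts, summed to 16083, 9939 and 19770 scaled CPM with both of these included. For orphan over non-sibling, the pair in which xtr-miR-183 passed, 4 of 9 muscle Xenopus entries were also higher and none lower. These were xtr-miR-1a, xtr-miR-499, xtr-miR-1b and xtr-miR-208. xtr-miR-1b (81, 1 and 5 counts) and xtr-miR-208 (33, 3 and 3 counts) reached the summed count of 30 only through the orphan library, so their calls are no finding. Of all 156 Xenopus entries tested with identical sequences merged, 14 were higher and 20 lower in that pair. The most counted muscle entry, xtr-miR-133a, was at 2667, 2177 and 1369 scaled CPM. It was 1.95 times as high for orphan over non-sibling and did not pass. The 9 muscle entries summed to 4706, 4486 and 2807. No muscle entry was at 0, and xtr-miR-1b and xtr-miR-208 had at most 5 counts in the sibling and non-sibling libraries. For orphan over non-sibling, all 3 gut and all 5 ciliated-cell Xenopus entries were lower, and 1 of 3 skin entries was lower. Of the ciliated-cell entries, xtr-miR-449b-3p (20, 3 and 34 counts) reached the summed count of 30 only through the non-sibling library. Its call is no finding. Also for orphan over non-sibling, the 2 vessel entries did not pass, nor did the 1 red blood cell entry or xtr-miR-375 of endocrine cells, and of 4 white blood cell entries 1 was lower. In that pair 1 of the 13 neuronal entries was higher, xtr-miR-153, and none lower, and its call is no finding for the reason above. For orphan over sibling, 4 of 13 neuronal entries and the red blood cell entry, on 3 sibling counts, were higher. The neuronal ones were xtr-miR-9a-3p, xtr-miR-9b-3p, xtr-miR-9b-5p and xtr-miR-138. All 3 gut, 2 of 5 ciliated-cell and 1 of 3 skin entries were lower. No other neuronal entry and no muscle, vessel, white blood cell or endocrine entry passed. Of the 156 merged Xenopus entries 14 were higher and 22 lower there. For non-sibling over sibling, where xtr-miR-183 was at 0.604 times, 2 of the 9 muscle entries were lower and none higher. Of the 156 merged Xenopus entries 22 were higher and 16 lower there. The 2 lower muscle entries were xtr-miR-499 and xtr-miR-208, the latter on 3 counts in each library of the pair, so its call is no finding. Other lists went the other way. Of the Xenopus entries, 5 of 13 neuronal, 2 of 5 ciliated-cell and 1 of 3 skin entries were higher and none lower. The neuronal ones were xtr-miR-9-5p and xtr-miR-9a-5p, which have equal counts, and xtr-miR-9a-3p, xtr-miR-9b-3p and xtr-miR-138. The neuronal entries of miR-124, miR-128, miR-129, miR-132, miR-137, miR-153 and miR-218 did not pass. The 1 endocrine, the 1 red blood cell and 1 of 4 white blood cell entries were higher too, the blood ones on 3 sibling counts. Of the higher ciliated-cell entries, xtr-miR-449b-5p rested on 4 sibling counts, and xtr-miR-9a-3p of the neuronal ones on 13. No gut or vessel entry passed in this pair. The oligodendrocyte microRNA xtr-miR-219 had 3 counts for orphan larvae and 0 in the other libraries. The part of other tissues in the levels of the cluster was not tested, and in bulk tissue fewer cells of a type and less RNA per cell cannot be told apart. Entries of families with no Xenopus entry took 5.81% of the sibling counts, against 1.35% and 1.64% in the orphan and non-sibling libraries.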

How the data were processed

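Per the labels, total RNA of the tissue was extracted with the RecoverAll kit. The protocol names an mRNA-seq preparation kit while the samples are described as miRNA, so the library method is unsettled. The authors deposited read counts per mature microRNA entry without normalization, a signal made of quantile-normalized counts, and log2 ratios of these, per the file headers. The sources used here name no aligner, counting tool, microRNA release or genome build, and no genome was used. The 1 unnamed line was left out.

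Here, counts were divided by library sizes times trimmed-mean (TMM) factors over the 866 entries with a sum of at least 30 counts (edgeR 4.0.16, R 4.3.3), which were 0.966, 0.817 and 1.27 (orphan, sibling, non-sibling). Ratios between libraries have exact conditional 95% intervals (Clopper-Pearson). log2 ratios have 0.5 added to each count, and against 0 counts a floor of 3 was used. Ratios of ratios have Wald intervals. Sequences were read from the deposited table. The calculation was checked on simulated counts. Other tools were Python 3.11.15, numpy 2.4.6, pandas 2.3.3, scipy 1.17.1 and matplotlib 3.10.9. The members and lists were chosen with earlier results of these data known. All members were named. Of other entries of these 3 microRNAs, the most and least counted and those that passed the size rule were named, besides a few chosen after their values were seen. Tried alternatives were 5 other scalings, 2 other filters, an offset of 5 counts, quantile-normalized counts and, chosen after seeing the data, a removed trend on GC content and length, and quantile-normalized counts for the ratios between members.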

Additional observations from a re-analysis of the deposited data

How the results depend on the processing

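No paired analysis was possible because each condition has 1 library. The sibling library's 865654 counts limit every ratio over it (1 count is 1.41 scaled CPM). Of the log2 ratios of orphan over sibling, xtr-miR-182-5p (0.57 to 0.98) and xtr-miR-183 (0.25 to 0.87) stayed positive and were not called under all 10 alternatives, and xtr-miR-96 turned to -0.03 with the GC and length trend removed. For non-sibling over sibling, xtr-miR-182-5p (0.01) turned to -0.06 without families that have no Xenopus entry, to -0.02 with no filter and to -0.15 with that trend removed. eca-miR-182 turned to -0.06 and -0.02 in the first and second of these. xtr-miR-183 and ccr-miR-183 turned to 0.01 with quantile-normalized counts. For orphan over non-sibling, xtr-miR-183 and ccr-miR-183 (1.10) no longer passed with total counts (0.70), TMM over merged Xenopus entries (0.95) and quantile-normalized counts (0.85). xtr-miR-182-3p, on 4 sibling counts, passed as lower for orphan over sibling with quantile-normalized counts (-1.21) and with the trend removed (-1.70), and for non-sibling over sibling with it removed (-1.15), both settings judged by size with no interval. The authors' deposited log2 value of sibling over orphan for this entry was 0.29, smaller than their normalized counts give. The entry dropped out at a summed count of at least 150. xtr-miR-96 (0.92) passed with upper-quartile factors (1.08) and quantile-normalized counts (1.05).

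The log2 ratio of the miR-182-5p to miR-183 ratio is untouched by any factor per library. For orphan over sibling (0.37) it turned to -0.13 with quantile-normalized counts and was 0.20 with the GC and length trend removed. For non-sibling over sibling (0.74) it was 0.59 with the trend removed, and for orphan over non-sibling (-0.37) it was -0.85 and -0.39. With quantile-normalized counts miR-96 per miR-183 was 0.00533, 0.00772 and 0.00466 (orphan, sibling, non-sibling), and miR-182-5p per miR-183 2.29, 2.51 and 4.14. The cluster's share became 25.5% (orphan) and 18.9% (non-sibling) with identical sequences merged, and 5.08%, 2.80% and 3.75% for the most counted entry of each name among all counts. Over all entries, 337 passed in non-sibling over sibling with total counts (202 reported) and 328 in orphan over sibling with quantile-normalized counts (211 reported). Of the entries that passed, 36.5%, 48.0% and 37.4% were higher (orphan over sibling, non-sibling over sibling, orphan over non-sibling), which became 50.6%, 83.1% and 11.8% with total counts. TMM over merged Xenopus entries gave 24.5% and 23.8% for orphan over sibling and non-sibling, upper-quartile factors 50.8% for the latter, and quantile-normalized counts 61.3% and 60.7% over sibling. The log2 median over all entries moved by 0.24, 0.63 and -0.39 with total counts. For orphan over sibling and non-sibling it moved by -0.12 and -0.15 over merged Xenopus entries and by 0.16 in both with upper-quartile factors. Over sibling it moved by 0.18 and 0.25 with quantile-normalized counts. The cause of these changes was not tested.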
